A study of Mus musculus with 18 samples.

Results

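Chitinase and resistin-like secreted proteins were followed through an acute model of allergic asthma in 2 mouse strains. The set holds 6 genes, Chil3, Chil4, Chia1, Retnla, Retnlb and Retnlg, and each gene was read from 1 probe set that names it and no other gene, the brightest on average across the 18 arrays where there were several. Of these 6 genes, 5 had such a probe set, 1 each, among 18193 genes with a probe set of their own in the whole series. Retnlg was not analysed here. RNA came from the whole lung of male mice 16 weeks old and was read on Affymetrix arrays, in 6 groups of 3 samples that the labels call biological replicates. The p-values therefore measure the spread between these samples.

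All mice, of strain A/J or C57BL/6, had been sensitized with 3 weekly intraperitoneal injections of 100 µg ovalbumin in alum, so every group carried that sensitization. The resiquimod group of each strain inhaled 1% ovalbumin for 30 min on each of 3 days and was given 100 µg of resiquimod (S-28463, R-848) intraperitoneally on 3 days that began the day before the first challenge. The ovalbumin group inhaled 1% ovalbumin alone, and the PBS group inhaled PBS. Challenge began 7 days after the last sensitization. Resiquimod is a small molecule that activates Toll-like receptor 7. No group analysed here received resiquimod without ovalbumin, and no vehicle injection is listed, so what resiquimod or the injection does on its own cannot be told apart from a changed response to the allergen.

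Chil3 (Ym1) and Chil4 (Ym2) are chitinase-like lectins that have lost the catalytic activity of the family, while Chia1, acidic mammalian chitinase, cleaves chitin. Retnla (RELMα) and Retnlb (RELMβ) are small cysteine-rich secreted proteins related to resistin, and Retnlg (RELMγ) is another. In the mouse lung the chitinase family and Retnla are made by macrophages and airway epithelium, and the cytokines IL-4 and IL-13, acting through the receptor chain Il4ra and the transcription factor Stat6, are known to induce them during allergic inflammation.

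The genes lie in 2 clusters. On chromosome 3 of the RefSeq annotation of GRCm38.p6, Chia1 runs from 106113382 to 106132118, Chil3 from 106147554 to 106167564 and Chil4 from 106201491 to 106219479. On chromosome 16, Retnlb runs from 48816856 to 48818892, Retnla from 48842609 to 48844461 and Retnlg from 48872608 to 48874498. All are annotated as protein-coding. The promoters of 3 genes are shown because Chil3 and Chil4 are neighbours with similar upstream sequence and unlike sizes of change, and Retnla has the site type by which Stat6 is known to bind. Each is the 250 bases before the annotated start, 5′ to 3′ on the strand of the gene, from RefSeq on GRCm38.p6, and capitals mark matches on either strand to the palindromes TTCNNNNGAA and TTCNNNGAA (STAT factors) and to TTNNGCAA (part of a C/EBP site).
Chil3: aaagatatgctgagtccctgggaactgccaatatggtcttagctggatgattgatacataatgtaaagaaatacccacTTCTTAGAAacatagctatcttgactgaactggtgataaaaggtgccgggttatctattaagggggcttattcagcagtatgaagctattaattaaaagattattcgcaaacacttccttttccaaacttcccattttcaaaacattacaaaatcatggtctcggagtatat
Chil4: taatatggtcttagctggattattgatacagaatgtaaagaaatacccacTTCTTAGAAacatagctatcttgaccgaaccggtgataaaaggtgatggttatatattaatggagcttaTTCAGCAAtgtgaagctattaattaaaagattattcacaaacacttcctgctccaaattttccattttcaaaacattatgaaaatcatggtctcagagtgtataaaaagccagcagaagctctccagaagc
Retnla: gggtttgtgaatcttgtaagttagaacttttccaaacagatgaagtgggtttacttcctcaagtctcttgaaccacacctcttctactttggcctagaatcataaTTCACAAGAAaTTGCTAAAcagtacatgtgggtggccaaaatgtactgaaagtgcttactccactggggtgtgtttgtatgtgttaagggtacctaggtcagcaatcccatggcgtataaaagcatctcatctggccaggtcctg
The windows are chr3:106167565-106167814 (minus strand), chr3:106219480-106219729 (minus strand) and chr16:48842359-48842608 (plus strand). Aligned with each other, the Chil3 and Chil4 windows were identical at 201 of 221 aligned bases (91.0%). Both held TTCTTAGAA, and the Chil4 window also held TTCAGCAA. The Retnla window held TTCACAAGAA and, on the opposite strand, a match to TTNNGCAA that does not overlap it. The Chia1 window held none of the 3 motifs, and Retnlg held TTCNNNNGAA and TTNNGCAA. Of 32851 RefSeq promoters cut to the same length, 5.85% held TTCNNNNGAA, 7.02% held TTCNNNGAA and 9.56% held TTNNGCAA. Of the 5 genes of the set with a promoter sequence, 2, 2 and 3 held them. Each motif also occurs in many promoters outside the set, and the similar Chil3 and Chil4 windows are not independent. Nor are those of Retnla and Retnlg, identical at 138 of 175 aligned bases (78.9%). Whether any match is used was not tested.

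The arrays carried a strong lung signal, with the surfactant gene Sftpc between 13.72 and 13.86 and the club cell gene Scgb1a1 between 13.66 and 13.86 on all 18 arrays (log2 RMA values). Transcripts of squamous epithelium, a tissue outside the lung, were present on 8 of the 18 arrays. Over 13 measured markers of it the list mean was at least 7.55 on those 8 and at most 4.73 on the other 10. At least 1 such array fell in each group. Skeletal muscle transcripts were high on the same 8 arrays and on A/J PBS replicate 3, with a list mean of at least 7.48 on those 8 and 7.94 on that replicate against 3.96 to 5.26 on the other 9. Results without the 8 arrays are given below. One A/J resiquimod array (replicate 1) also held stomach transcripts, with Gkn1 at 8.65 there and between 3.05 and 3.63 on the other arrays. Nnt, a mitochondrial transhydrogenase gene that is partly deleted in the substrain C57BL/6J, read 8.35, 8.41 and 8.27 in C57BL/6 resiquimod lungs, 8.45, 8.35 and 8.40 in C57BL/6 ovalbumin lungs, and 7.04, 7.27 and 6.90 in C57BL/6 PBS lungs. The C57BL/6 PBS mice stand apart in this gene, and a difference of substrain cannot be told apart from the effect of the aerosol wherever that group enters a comparison.

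Inhaled ovalbumin raised all 5 measured genes in both strains. Against PBS the largest change was that of Chil4, at 5.86 on the log2 scale in A/J and 5.79 in C57BL/6, and the smallest was that of Retnlb, at 0.61 and 0.55. A change was called at an adjusted p under 0.05 in limma's moderated test, with Benjamini-Hochberg adjustment over 45037 probe sets. By that rule 3.20% of all genes were higher with ovalbumin in A/J and 1.18% were lower, and in C57BL/6 the shares were 1.44% and 0.154%. The median change of the 5 genes was 2.73 in A/J and 2.21 in C57BL/6, beside a median of 0.00 over all genes in each strain. Resiquimod before ovalbumin lowered 4 of the 5 genes relative to ovalbumin alone in A/J and 3 of the 5 in C57BL/6, where 5.39% and 4.60% of all genes were lower and 4.38% and 5.80% were higher. The median change of the 5 genes was -0.89 in A/J and -0.98 in C57BL/6, beside 0.00 and -0.02 over all genes. Both contrasts use the same ovalbumin arrays, so the rise and the fall of a gene are not independent measurements. In whole lung, fewer cells of a type and less RNA per cell cannot be told apart.

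**Figure D1:**
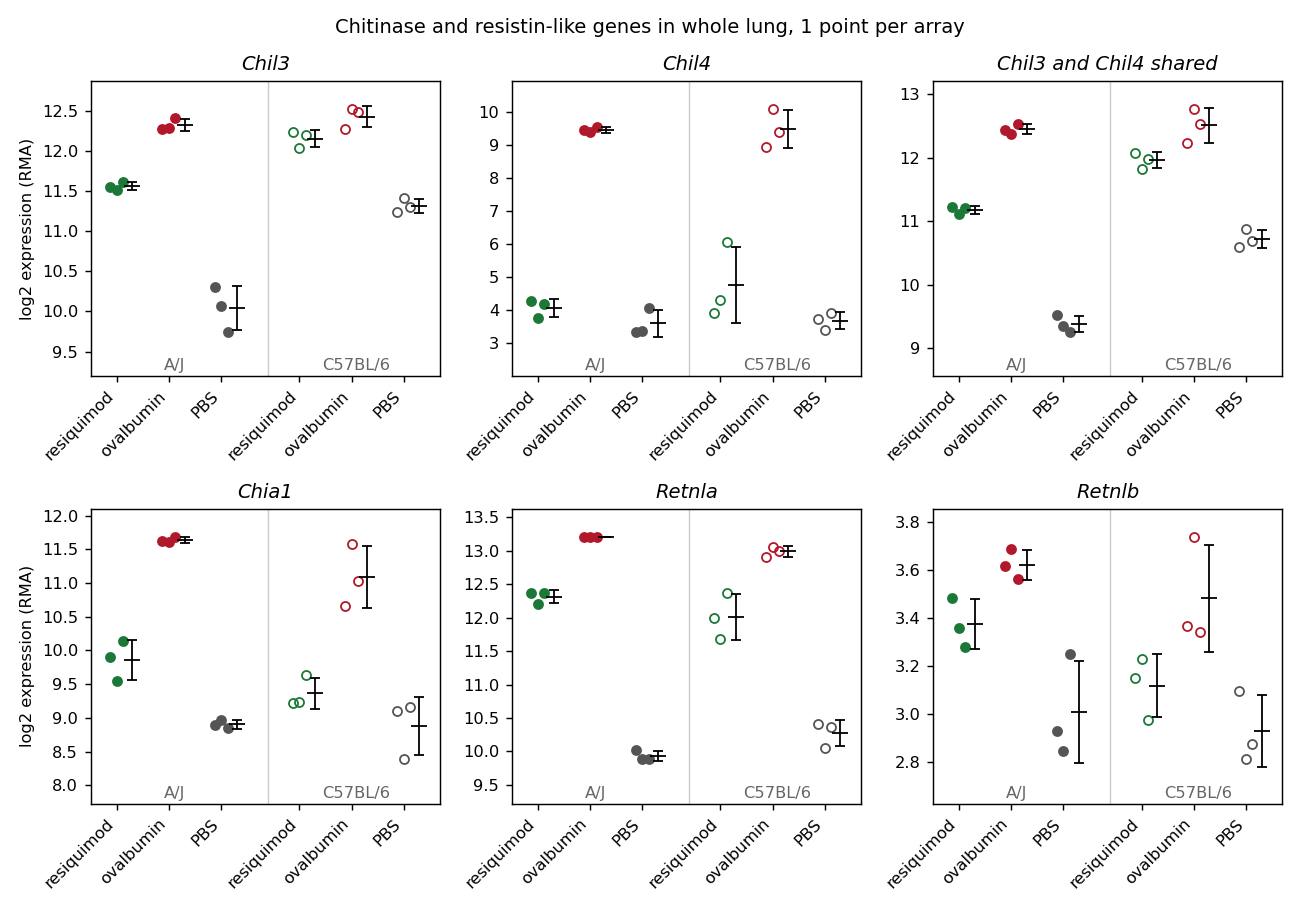
Log2 RMA expression (vertical axes, 1 scale per panel) of the 5 measured genes and of the probe set that reads Chil3 and Chil4 together, in A/J (filled) and C57BL/6 (open) lungs. Each point is 1 array and bars are the mean ± SD of 3 arrays. In all panels the mean is highest with ovalbumin and lowest with PBS, and Chil4 with resiquimod lies within 1 unit of its PBS values except on 1 C57BL/6 array at 6.06.

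Chil4 had the widest swing of the set. It read 4.28, 3.76 and 4.18 in A/J resiquimod lungs, 9.45, 9.38 and 9.55 in A/J ovalbumin lungs, and 3.36, 3.38 and 4.06 in A/J PBS lungs. In C57BL/6 the values were 3.92, 4.30 and 6.06 with resiquimod, 8.95, 10.09 and 9.38 with ovalbumin, and 3.72, 3.40 and 3.91 with PBS. The ovalbumin arrays lay far above all others in either strain. The resiquimod and PBS arrays overlapped in A/J, while in C57BL/6 the lowest resiquimod array (3.92) lay just above the highest PBS array (3.91). With ovalbumin it was 58.1-fold higher than with PBS in A/J (log2 change 5.86, SE 0.40, limma adjusted p = 2.15e-07) and 55.5-fold higher in C57BL/6 (5.79, SE 0.40, adjusted p = 5.37e-07). Several PBS values lie close to 3.33, the 25th percentile of all values, where lower levels are hard to read, so these folds may understate the difference. With resiquimod it was 41.8-fold lower than with ovalbumin alone in A/J (change -5.39, limma adjusted p = 3.32e-07) and 26.3-fold lower in C57BL/6 (-4.72, adjusted p = 1.55e-06). Against PBS the resiquimod lungs were not called different, with a change of 0.47 (95% interval -0.38 to 1.33, limma adjusted p = 0.58) in A/J and 1.08 (0.23 to 1.93, adjusted p = 0.0968) in C57BL/6. The 3 C57BL/6 resiquimod arrays spread by 1.14 (SD), with replicate 3 alone at 6.06. This change rests on that array, since it was 0.43 without C57BL/6 resiquimod replicate 3 (limma adjusted p = 0.438) and 1.50, then called, without C57BL/6 resiquimod replicate 1 (adjusted p = 0.0258).

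Chil3 was already abundant in PBS lungs and moved over a narrower range. It read 11.55, 11.52 and 11.62 in A/J resiquimod lungs, 12.28, 12.29 and 12.42 in A/J ovalbumin lungs, and 10.30, 10.07 and 9.75 in A/J PBS lungs. C57BL/6 lungs read 12.24, 12.03 and 12.19 with resiquimod, 12.28, 12.53 and 12.48 with ovalbumin, and 11.24, 11.41 and 11.30 with PBS. In each strain the 3 groups did not overlap, with ovalbumin highest and PBS lowest. Ovalbumin raised it 4.88-fold in A/J (log2 change 2.29, SE 0.11, limma adjusted p = 4.61e-09) and 2.16-fold in C57BL/6 (1.11, SE 0.11, adjusted p = 2.23e-05). With resiquimod it was 1.70-fold lower than with ovalbumin in A/J (change -0.77, limma adjusted p = 0.000316), while in C57BL/6 the change of -0.28 (95% interval -0.51 to -0.04) was not called (adjusted p = 0.158). In the resiquimod groups it remained above PBS, by 1.52 in A/J (limma adjusted p = 2.50e-07) and 0.84 in C57BL/6 (adjusted p = 6.81e-05). The Chil4 probe set showed no called difference in these same 2 comparisons. Its C57BL/6 change of 1.08 was nonetheless larger than that of Chil3, with a larger SE (0.40 against 0.11). A difference between the 2 genes was not tested.

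A further probe set is annotated to Chil3 and Chil4 together. It read 11.22, 11.11 and 11.20 in A/J resiquimod lungs, 12.43, 12.38 and 12.53 in A/J ovalbumin lungs, and 9.52, 9.35 and 9.26 in A/J PBS lungs. Those of C57BL/6 read 12.08, 11.83 and 11.98 with resiquimod, 12.23, 12.77 and 12.52 with ovalbumin, and 10.59, 10.87 and 10.70 with PBS. Its groups kept the order seen for Chil3, without overlap in either strain. Its changes with ovalbumin were 3.07 in A/J and 1.79 in C57BL/6 (SE 0.12 each), and with resiquimod against ovalbumin they were -1.27 and -0.55, all called. The share of each transcript in this signal was not tested.

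Chia1, the enzyme of the set, rose with ovalbumin and fell with resiquimod in both strains. It read 9.90, 9.55 and 10.14 in A/J resiquimod lungs, 11.62, 11.60 and 11.69 in A/J ovalbumin lungs, and 8.89, 8.97 and 8.85 in A/J PBS lungs. In C57BL/6 the values were 9.22, 9.24 and 9.63 with resiquimod, 10.66, 11.58 and 11.02 with ovalbumin, and 9.10, 8.39 and 9.16 with PBS. The ovalbumin arrays stood above the rest of their strain, and the resiquimod arrays lay between the other groups. Ovalbumin raised it 6.64-fold in A/J (log2 change 2.73, SE 0.22, limma adjusted p = 1.09e-06) and 4.62-fold in C57BL/6 (2.21, SE 0.22, adjusted p = 1.92e-05). With resiquimod it was 3.42-fold lower than with ovalbumin in A/J (-1.77, limma adjusted p = 6.70e-05) and 3.31-fold lower in C57BL/6 (-1.72, adjusted p = 7.58e-05). Against PBS it stayed higher in A/J resiquimod lungs (0.96, limma adjusted p = 0.00979), and the C57BL/6 change of 0.48 (95% interval 0.02 to 0.94) was not called (adjusted p = 0.18). Chia1 is also made in the mouse stomach. The A/J resiquimod array with stomach transcripts read 9.90 for Chia1, between the other 2 arrays of its group.

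Retnla stayed far above PBS under resiquimod. It read 12.37, 12.21 and 12.37 in A/J resiquimod lungs, 13.21 on each of the 3 A/J ovalbumin arrays, and 10.03, 9.89 and 9.88 in A/J PBS lungs. C57BL/6 lungs read 11.998, 11.68 and 12.36 with resiquimod, 12.91, 13.06 and 12.998 with ovalbumin, and 10.41, 10.05 and 10.36 with PBS. No 2 groups of a strain overlapped. Ovalbumin raised it 9.68-fold in A/J (log2 change 3.28, SE 0.13, limma adjusted p = 3.65e-10) and 6.57-fold in C57BL/6 (2.72, SE 0.13, adjusted p = 7.09e-09). These values lie near the highest of the table, 14.03, and whether the array scale compresses them was not tested. With resiquimod it was 1.86-fold lower than with ovalbumin in A/J (-0.89, limma adjusted p = 0.000324) and 1.97-fold lower in C57BL/6 (-0.98, adjusted p = 0.000132). It was still 5.21-fold higher than PBS in A/J (2.38, limma adjusted p = 1.12e-08) and 3.34-fold higher in C57BL/6 (1.74, adjusted p = 1.67e-07).

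Retnlb, known from goblet cells of the gut, was a weak signal throughout. It read 3.48, 3.36 and 3.28 in A/J resiquimod lungs, 3.61, 3.68 and 3.56 in A/J ovalbumin lungs, and 2.93, 2.85 and 3.25 in A/J PBS lungs. Those of C57BL/6 read 3.15, 3.23 and 2.97 with resiquimod, 3.37, 3.74 and 3.34 with ovalbumin, and 3.10, 2.81 and 2.87 with PBS. The ovalbumin arrays lay above the PBS arrays of their strain by less than 1 unit, and its mean over all arrays, 3.25, is below the 25th percentile of all values. The change with ovalbumin was 0.61 in A/J (SE 0.12, limma adjusted p = 0.0084) and 0.55 in C57BL/6 (adjusted p = 0.0322). The C57BL/6 call was lost without 1 array, namely without PBS replicate 2 (limma adjusted p = 0.139), PBS replicate 3 (0.117) or ovalbumin replicate 2 (0.185), and the A/J call without PBS replicate 2 (0.0543). With resiquimod against ovalbumin the changes of -0.25 in A/J and -0.36 in C57BL/6 were not called (limma adjusted p = 0.272 and 0.0795).

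**Figure D2:**
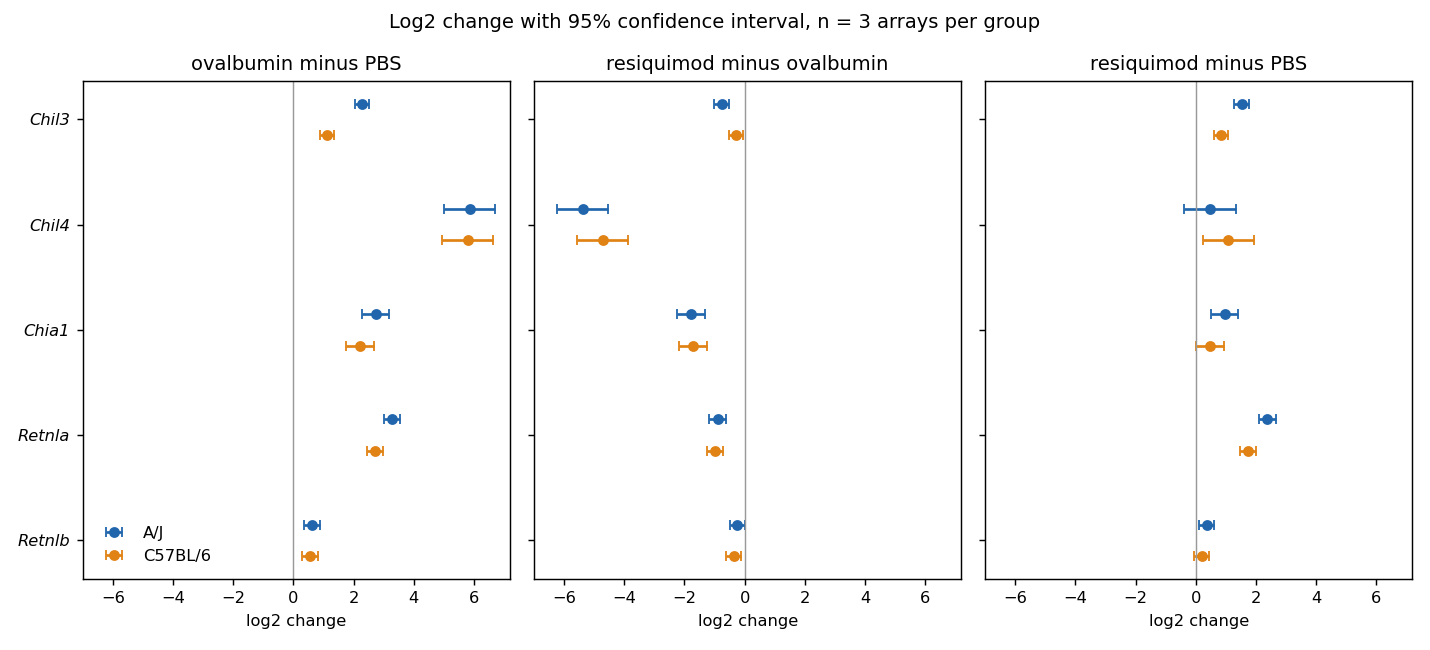
Log2 change (horizontal axes) with its 95% confidence interval for the 5 measured genes in A/J and C57BL/6, from the fit over all 18 arrays with 3 arrays per group. Chil4 moves by more than 4 units with ovalbumin and back with resiquimod. The intervals of Chil3, Chia1 and Retnla exclude no change against PBS in the resiquimod groups of both strains. That of Chil4 does so in C57BL/6 only, and that of Retnlb in A/J only.

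Against PBS, the resiquimod groups had 3 of 5 genes called higher in A/J (Chil3, Chia1 and Retnla), where 5.86% of all genes were higher, and 2 of 5 in C57BL/6 (Chil3 and Retnla), where 9.61% were. The median change over the 5 genes was 0.96 in A/J and 0.84 in C57BL/6. None of the 5 changes was below 0 in either strain.

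The strains differed mainly in Chil3. In PBS lungs it was lower in A/J than in C57BL/6 by 1.28 on the log2 scale (2.42-fold, limma adjusted p = 5.22e-07), and it was the only 1 of the 5 genes called there, where 9.01% of all genes were called in either direction. In ovalbumin lungs the strains overlapped for Chil3 (A/J minus C57BL/6 -0.10, 95% interval -0.34 to 0.13), and none of the 5 was called (limma adjusted p from 0.153 for Chia1 to 0.992 for Chil4) against 9.27% of all genes. At an unadjusted p under 0.05 limma gave 1 of 5, Chia1. Chia1 reached a difference of 0.79 there once C57BL/6 ovalbumin replicate 2 was left out (limma adjusted p = 0.0278). In resiquimod lungs Chil3 was again lower in A/J, by 0.59 (limma adjusted p = 0.00125), and was the 1 gene called beside 16.5% of all genes. Limma gave 3 of 5 at an unadjusted p under 0.05 in resiquimod lungs. Besides Chil3 these were Chia1 (0.50, 95% interval 0.04 to 0.96) and Retnla (0.30, 0.03 to 0.57), both higher in A/J. Without C57BL/6 resiquimod replicate 3, Retnla was also called there, higher in A/J by 0.47 (limma adjusted p = 0.0104).

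The ovalbumin response of Chil3 was larger in A/J than in C57BL/6 by 1.18 (SE 0.16, limma adjusted p = 0.00392 for the interaction). Few genes passed that test, 0.0605% of all. The shared Chil3 and Chil4 probe set gave 1.28 (SE 0.16, limma adjusted p = 0.00255). The interaction of the other 4 genes was not called, with values of 0.07 for Chil4, 0.53 for Chia1, 0.56 for Retnla and 0.06 for Retnlb. Limma had 2 of 5 interactions at an unadjusted p under 0.05, Chil3 and Retnla (95% interval 0.17 to 0.95). This test uses the C57BL/6 PBS group, in which Nnt stands apart, and the strains' Chil3 levels differed mainly in that state, as the values above show. For the resiquimod response limma called none of the 5 interactions and had 1 at an unadjusted p under 0.05, beside 1.24% of all genes called. That of Chil3 was -0.49 (95% interval -0.82 to -0.16, limma adjusted p = 0.161).

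In order of level, Chil3 was highest in C57BL/6 and A/J ovalbumin lungs, which overlapped, followed by C57BL/6 resiquimod, A/J resiquimod, C57BL/6 PBS and A/J PBS, with no overlap between those neighbours or with the group before. Chil4 had the ovalbumin groups of both strains overlapping at the top, and the other 4 groups overlapped each other in turn below them. Chia1 ran from A/J ovalbumin through C57BL/6 ovalbumin, just below it without overlap, to A/J and C57BL/6 resiquimod, which overlapped, and then to the overlapping A/J and C57BL/6 PBS groups. Retnla followed the same order in its first 4 groups, with the A/J and C57BL/6 resiquimod groups overlapping, and then had C57BL/6 PBS above A/J PBS. Retnlb overlapped between most neighbours.

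Leaving out the 8 arrays with squamous transcripts left 1 or 2 arrays per group. Sizes for Chil3, Chil4, Chia1 and Retnla were similar for ovalbumin in A/J and for resiquimod against ovalbumin in both strains. Against PBS in C57BL/6 some sizes moved, that of Chia1 from 2.21 to 2.92 with ovalbumin and from 0.48 to 1.04 with resiquimod. That of Chil4 with resiquimod went from 1.08 to 1.59. The A/J ovalbumin and C57BL/6 PBS groups then held 1 array each, so every test that uses either takes its spread from the other groups and assumes that the lone array varies like them. A/J PBS replicate 3, with muscle transcripts, remained in that fit. On its own, leaving out A/J PBS replicate 3 gave A/J ovalbumin changes of 2.14 for Chil3, 6.09 for Chil4, 2.70 for Chia1, 3.25 for Retnla and 0.73 for Retnlb, all called. Without the 8 arrays the ovalbumin change in A/J was 2.38 for Chil3, 5.66 for Chil4, 2.69 for Chia1 and 3.32 for Retnla, and in C57BL/6 it was 1.09, 6.33, 2.92 and 2.98 for the same genes, all called. The change with resiquimod against ovalbumin was -5.41 for Chil4, -1.76 for Chia1 and -0.92 for Retnla in A/J, and -4.75, -1.88 and -0.85 in C57BL/6, again called. Chil3 was no longer called for resiquimod in A/J (-0.72, limma adjusted p = 0.0561), nor Chia1 for resiquimod against PBS in A/J (0.93, adjusted p = 0.0827). Retnlb was not called for ovalbumin in A/J (0.64, limma adjusted p = 0.436) or C57BL/6 (0.73, adjusted p = 0.29), and the Chil3 interaction of 1.29 was not either (adjusted p = 0.349).

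Of the other chitinase and resistin family genes, 6 of 8 were measured, and Chil1 was the 1 called higher with ovalbumin in either strain. Chil1 (YKL-40), a chitinase-like protein without enzyme activity, read 11.55, 11.45 and 11.52 in A/J resiquimod lungs, 11.999, 12.12 and 12.23 in A/J ovalbumin lungs, and 10.96, 11.16 and 11.08 in A/J PBS lungs. In C57BL/6 it read 11.42, 11.18 and 11.32 with resiquimod, 11.64, 11.98 and 11.79 with ovalbumin, and 11.11, 11.40 and 11.12 with PBS. In A/J the groups were separate, and in C57BL/6 the resiquimod and PBS arrays overlapped. It rose with ovalbumin by 1.05 in A/J (limma adjusted p = 1.13e-05) and 0.59 in C57BL/6 (adjusted p = 0.00493), and fell with resiquimod against ovalbumin by 0.61 (limma adjusted p = 0.00117) and 0.50 (adjusted p = 0.00504). Without the arrays with squamous transcripts the ovalbumin change was 1.00 in A/J (adjusted p = 0.0193) and 0.49 in C57BL/6, no longer called (adjusted p = 0.23), and the resiquimod change was -0.64 in A/J (adjusted p = 0.0521) and -0.52 in C57BL/6 (adjusted p = 0.0316).

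Retn, resistin itself, is known as a product of fat cells in mice, and its pattern was another. In A/J it read 6.40, 5.69 and 6.46 with resiquimod, 7.32, 6.13 and 7.39 with ovalbumin, and 7.09, 6.75 and 7.43 with PBS. In C57BL/6 it read 5.33, 6.80 and 5.63 with resiquimod, 8.19, 6.49 and 7.59 with ovalbumin, and 8.56, 8.77 and 8.64 with PBS. It was lower with resiquimod than with ovalbumin in C57BL/6 (-1.50, limma adjusted p = 0.0375), although these arrays overlap, and no change with ovalbumin was called in either strain. Against PBS the C57BL/6 resiquimod arrays all lay lower, by -2.74 (limma adjusted p = 0.000302). In PBS lungs Retn was also lower in A/J than in C57BL/6 (-1.57, limma adjusted p = 0.0265), again in a comparison with the C57BL/6 PBS group. Without the arrays with squamous transcripts the difference between resiquimod and ovalbumin in C57BL/6 was -1.56 and not called (limma adjusted p = 0.0742), and that between resiquimod and PBS was -3.29 and called (adjusted p = 0.0096). Ovgp1, an oviduct glycoprotein related to the chitinases, read 4.70, 5.33 and 4.72 in A/J resiquimod lungs against 4.43, 4.14 and 3.66 in A/J ovalbumin lungs, a change of 0.84 (limma adjusted p = 0.00594), which was 0.89 without the arrays with squamous transcripts and not called (adjusted p = 0.114). In C57BL/6 it stayed between 3.48 and 3.83. Chit1 (chitotriosidase, a chitinase), Chid1 and Ctbs (a lysosomal enzyme that cleaves chitobiose) were not called with ovalbumin or with resiquimod in either strain. Their values over all arrays ran from 3.65 to 4.70, 5.70 to 6.37 and 5.43 to 6.08.

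**Figure D3:**
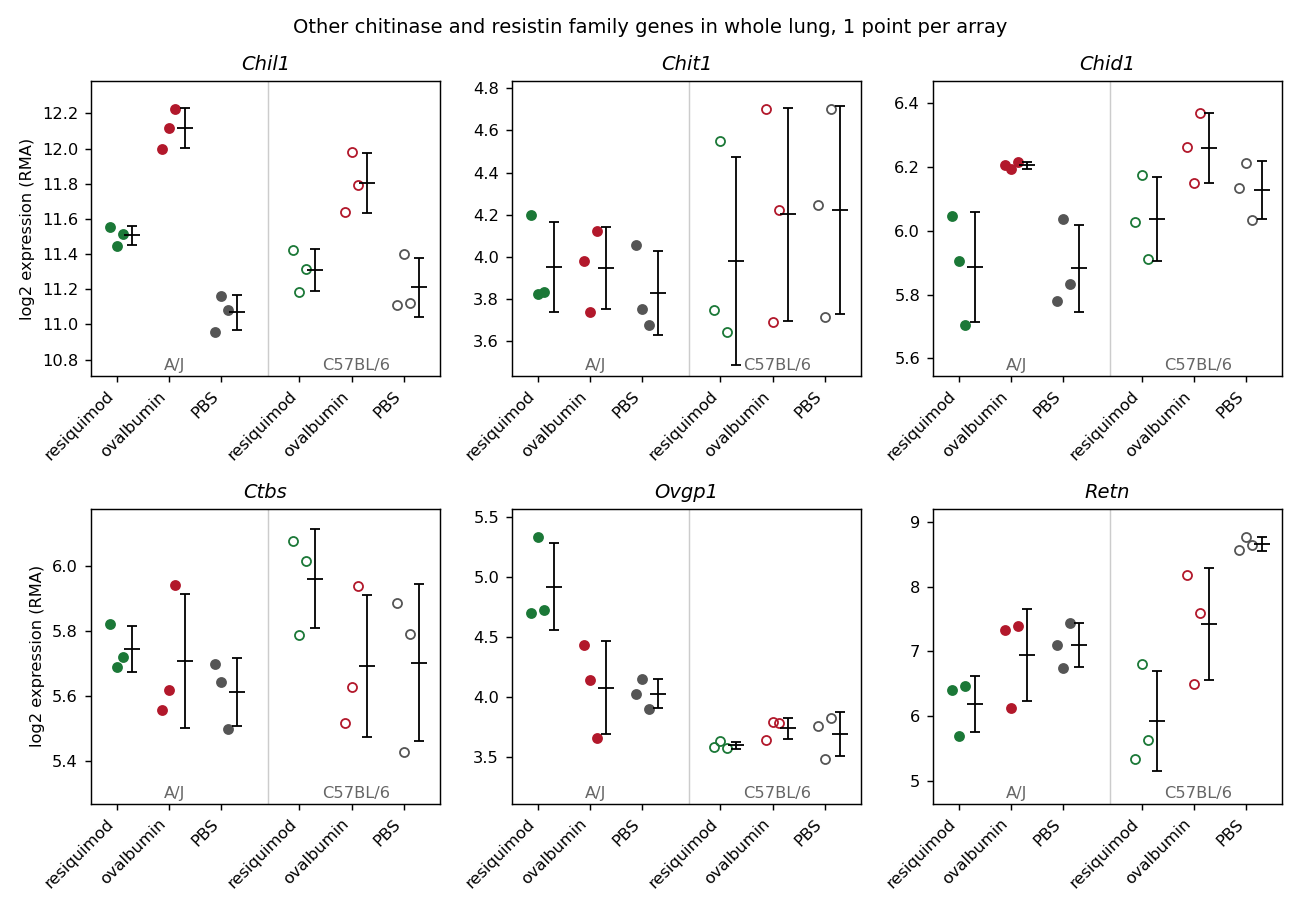
Log2 RMA expression (vertical axes, 1 scale per panel) of the 6 measured genes related to the set, in A/J (filled) and C57BL/6 (open) lungs. Each point is 1 array and bars are the mean ± SD of 3 arrays. Chil1 is highest with ovalbumin in both strains, and Retn is highest in C57BL/6 PBS lungs.

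Genes of the goblet cell and mucus list moved with the set. With ovalbumin, 13 of 16 rose in A/J and 10 of 16 in C57BL/6 and none fell, with list medians of 1.46 and 0.87. Clca1, a protein secreted by goblet cells, rose by 5.85 (limma adjusted p = 1.57e-06) in A/J and 6.14 (adjusted p = 1.66e-06) in C57BL/6, and the anion exchanger gene Slc26a4 by 4.40 and 3.91. With resiquimod against ovalbumin, 11 of 16 fell in each strain, with medians of -0.74 in A/J and -0.92 in C57BL/6. Clca1 fell by 2.42 in A/J (limma adjusted p = 0.00454) and fell by 2.59 in C57BL/6 (adjusted p = 0.00237), and Slc26a4 fell by 3.01 and 3.34. Without the arrays with squamous transcripts 8 genes of this list rose with ovalbumin in A/J and 7 in C57BL/6, and 7 and 8 fell with resiquimod.

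Genes of alternatively activated macrophages, a state linked to IL-4 and IL-13, also rose with ovalbumin and fell with resiquimod. In A/J 11 of 18 rose with ovalbumin and 10 of 18 fell with resiquimod against ovalbumin, and in C57BL/6 it was 8 of 18 in each case. The list medians with ovalbumin were 1.11 in A/J and 0.70 in C57BL/6, and with resiquimod -0.94 and -0.71. The lectin genes Mgl2 and Cd209e and the chemokine gene Ccl24 had some of the largest changes. Mgl2 fell with resiquimod by 3.22 in A/J and 3.62 in C57BL/6, and Cd209e, which rose by 3.58 and 2.06 with ovalbumin, fell by 3.56 and then, in C57BL/6, fell by 2.25. Ccl24 rose by 2.55 in A/J and 1.89 in C57BL/6 with ovalbumin. Without the arrays with squamous transcripts 6 genes of the list rose with ovalbumin in A/J and 5 in C57BL/6, and 8 fell with resiquimod in each strain. Arg1, arginase, changed by 2.21 in A/J and 1.98 in C57BL/6 with ovalbumin, and by -1.53 and -2.36 with resiquimod, with no change called (limma adjusted p from 0.0625 to 0.314).

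Of the type 2 cytokine and receptor signalling list, 5 of 17 rose with ovalbumin in A/J and 2 of 17 in C57BL/6. With resiquimod against ovalbumin 3 fell in A/J, and in C57BL/6 2 fell and 1 rose. Il33 was the 1 gene called in each of these 4 comparisons once the arrays with squamous transcripts were left out. Il33, an epithelial alarm cytokine, rose by 1.30 in A/J (limma adjusted p = 0.000339) and 0.83 in C57BL/6 (adjusted p = 0.028), and fell with resiquimod by 1.47 and 1.20 (adjusted p = 5.55e-05 and 0.000329). Il4 and Il13 each rose by 0.43 with ovalbumin in A/J (limma adjusted p = 0.0495 and 0.042), calls that were lost without the arrays with squamous transcripts, where the changes were 0.46 and 0.51 (adjusted p = 0.448 and 0.368). In C57BL/6 their changes of 0.30 and 0.22 were not called (adjusted p = 0.319 and 0.514). Stat6 itself was not called, with changes of -0.03 in A/J and -0.02 in C57BL/6 with ovalbumin (limma adjusted p = 0.915 and 0.964).

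Myeloid markers moved with the resiquimod comparisons. Of the neutrophil list 11 of 17 rose in A/J and 9 of 17 in C57BL/6 with resiquimod against ovalbumin, with S100a8 up by 2.39 and 1.35. Its summed linear level over the 17 genes ran from 5397 to 9238 in A/J resiquimod lungs against 2178 to 2410 with ovalbumin, and from 6474 to 7827 in C57BL/6 resiquimod lungs against 3111 to 4272 with ovalbumin. Of the resident and alveolar macrophage list 5 of 15 rose and 2 fell in A/J, and 9 rose in C57BL/6. Of the eosinophil list 5 of 9 fell in A/J, and in C57BL/6 2 fell and 1 rose. Of the club and alveolar epithelium list 2 of 16 fell in A/J and 3 in C57BL/6. Without the arrays with squamous transcripts 4 neutrophil genes were called higher with resiquimod in A/J and 2 in C57BL/6, with list medians of 1.05 and 0.56 beside 0.98 and 0.54 on all arrays. Of the monocyte list 6 of 12 rose and 2 fell in A/J, and 5 rose in C57BL/6. In that smaller fit 3 monocyte genes rose in A/J and 5 in C57BL/6, 2 resident and alveolar macrophage genes rose and 1 fell in A/J and 5 rose in C57BL/6, 2 eosinophil genes fell in each strain, and 1 club and alveolar epithelium gene fell, in C57BL/6. The part of these cells in the changes of the set was not tested.

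Lists of other tissues held few calls. Of 8 colon goblet cell genes 1, Fcgbp, was called in each strain, higher with ovalbumin and lower with resiquimod, and it is also in the goblet cell and mucus list. None of 13 squamous epithelium, 7 stomach or 10 skeletal muscle genes was called by limma with ovalbumin or with resiquimod against ovalbumin. At most 1, 2 and 0 of them were under an unadjusted limma p of 0.05 in any of these 4 comparisons. Squamous and muscle transcripts were high on some arrays of a group and low on others, so these tests could hardly call them. They do not show that the groups held alike amounts of that tissue. With ovalbumin the squamous list median was 0.71 in A/J and -0.95 in C57BL/6, and the muscle median 0.41 and -1.51. With resiquimod against ovalbumin they were -0.73 and -0.15 for squamous and -1.38 and -0.09 for muscle genes. One of the 7 stomach genes was called without the arrays with squamous transcripts, Tff1, which is also in the goblet cell and mucus list, with a change of 1.50 with ovalbumin (limma adjusted p = 0.00772) and -1.39 with resiquimod (adjusted p = 0.00586), both in A/J. The summed linear level of the stomach list, which includes Tff1, ran from 528.4 to 628.9 in A/J ovalbumin lungs against 275.2 to 285.9 in A/J PBS lungs. Without the arrays with squamous transcripts, the other stomach genes changed little or fell with ovalbumin in A/J. The changes were 0.11 for Gkn1, -0.13 for Gkn2, -0.32 for Pgc, -0.19 for Atp4a, -0.05 for Atp4b and -0.48 for Ctse.

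**Figure D4:**
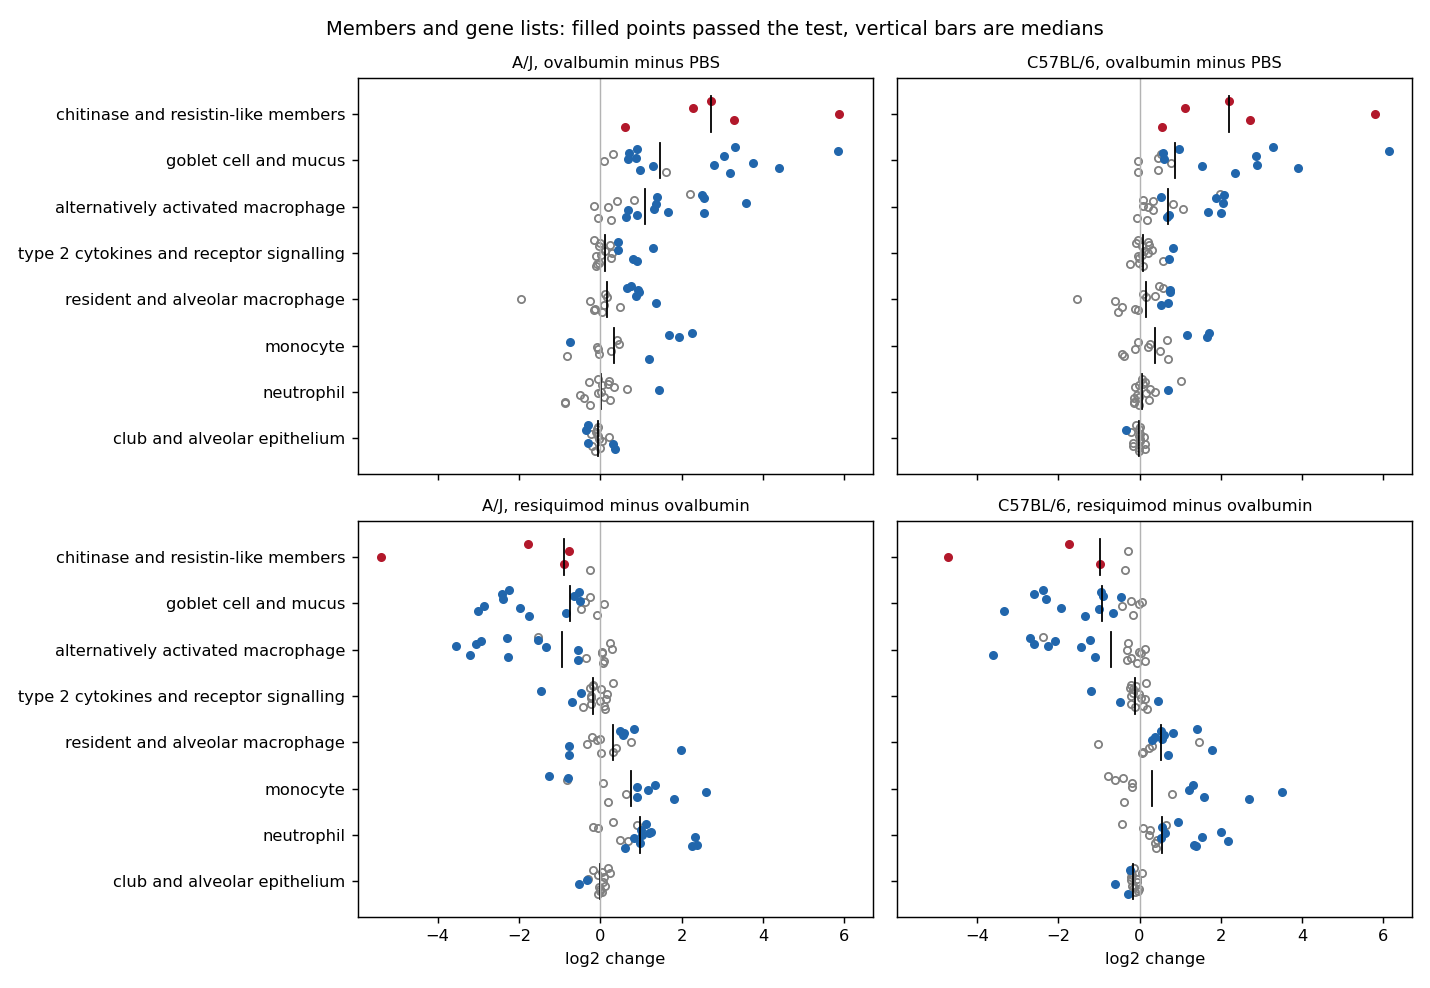
Log2 change (horizontal axes) of the 5 measured genes of the set and of the genes of 7 lists in the 4 main comparisons. Filled points passed the test at an adjusted p under 0.05, open points did not, and vertical bars are medians. The members and the goblet cell and alternatively activated macrophage lists lie to the right with ovalbumin and to the left with resiquimod, and the neutrophil list lies to the right with resiquimod.

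The genes most alike in pattern were found by Pearson r over the 18 arrays among 16310 genes, where the group differences carry most of the likeness. For Chil4 they were Fcgbp (r = 0.99, Spearman rho 0.92), Fer1l6 (0.98, 0.92) and Batf3 (0.98, 0.88). For Chia1 they were Scin (0.97, 0.94), Fcgbp (0.97, 0.95) and Fer1l6 (0.96, 0.95), so 2 genes were shared with Chil4. For Retnla they were Clca1 (0.96, 0.93), Adam8 (0.95, 0.94) and Ch25h (0.94, 0.89). For Chil3 the closest were Aldh18a1 (0.93, 0.87), Slc38a1 (0.93, 0.81) and Basp1 (0.91, 0.88), and for Retnlb Ccl8 (0.89, 0.89), Sh3pxd2b (0.89, 0.90) and Sec61a1 (0.88, 0.89).

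Between members, r over the 18 arrays ran from 0.57 for Chil3 and Retnlb to 0.94 for Chil4 and Chia1. After the group means were taken out it ran from -0.43 for Chil3 and Retnlb to 0.69 for Chil4 and Retnla. The within-group values rest on 3 arrays a group and share each array's normalization.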

How the data were processed

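Total RNA of whole lungs was labelled with biotin and hybridised to Affymetrix arrays, per the labels' protocols. The deposited values are log2 expression made by the authors with RMA, which corrects background, normalizes quantiles and summarises probes, and with the affy package, per the submitters' processing notes. The files hold no detection calls, scan dates or batches. Of the probe sets, 64 controls were left out, 45037 were tested, and 34945 name 1 gene, 932 several. Within groups the arrays correlated at r from 0.987 to 0.997.

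The fit gave 6 group means over all 18 arrays (limma 3.58.1, R 4.3.3), with 12 residual and 4.30 prior degrees of freedom. Tests were two-sided, adjusted by Benjamini-Hochberg over 45037 probe sets, and called under 0.05. Shares of all genes use 18193 genes, 1 probe set each. The procedure was tested on simulated data with normal noise drawn independently for each probe set. Squamous and muscle transcripts were high together on some real arrays, so the simulation does not bear on their effect. An exact permutation test of 3 against 3 arrays cannot go below p = 0.1, so none was used.

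The members, the 13 lists and the tests were chosen with earlier results of these data known. A TATA motif was also searched in the promoters and left out after its matches were seen, since the window edge interrupts it in Chil3. Named genes are the members and their family, up to 4 called genes per list with the largest change, and Il4, Il13, Stat6, Arg1, Clca1 and S100a8. Alternatives were a filter at the 25th percentile, moderation with an intensity trend, the mean of all probe sets of a gene, a replicate block, only the groups compared, median centring, array weights and leaving out each array.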

Additional observations from a re-analysis of the deposited data

Results flagged for a closer look

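Chil3 was flagged because its ovalbumin response differed between strains by a test of the difference itself. The response was 2.29 in A/J and 1.11 in C57BL/6, a difference of 1.18 on the log2 scale (SE 0.16, limma adjusted p = 0.00392). The strains were alike after ovalbumin (12.33 in A/J and 12.43 in C57BL/6) and apart after PBS (10.04 in A/J and 11.32 in C57BL/6). Nnt in the C57BL/6 PBS group read 7.04, 7.27 and 6.90 and on the other C57BL/6 arrays 8.27 to 8.45, so a difference of substrain cannot be told apart from the effect of the aerosol in this value. It was 1.29 without the arrays with squamous transcripts, where it was not called (limma adjusted p = 0.349), and from 1.03 to 1.31 without each array in turn, where it was called every time.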

How the results depend on the processing

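Over 26 alternative settings, 1371 of 1419 member values kept direction and side of the threshold, 12 lost a call, 7 gained one and 29 changed sign, the last all in strain differences, or strain differences in response, that were not called. With array weights 2 genes were called between strains in PBS lungs, the added one being Retnla at -0.39 (limma adjusted p = 0.0449), while Chia1 turned to -0.0589 there and Chil4 to 0.033 in ovalbumin lungs. Without the 8 arrays with squamous transcripts, a setting chosen after seeing the data, 0 genes were called for the strain difference in the ovalbumin response (limma, Chil3 adjusted p = 0.349, 1 gene at an unadjusted p under 0.05). There Chil4 turned to 0.32 between strains in PBS lungs. For the strain difference in the ovalbumin response Chil4 became -0.67, Chia1 -0.22 and Retnlb -0.091, and for the resiquimod response Chia1 became 0.12 and Retnla -0.068. The cause was not tested, but that setting leaves 1 or 2 arrays a group.

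Leaving out each array in turn gave 1 to 2 genes called between strains in PBS lungs, 0 to 1 in ovalbumin lungs and 1 to 2 in resiquimod lungs. Between strains in PBS lungs the values ran from -0.31 to 0.043 for Chil4, -0.23 to 0.16 for Chia1 and -0.039 to 0.17 for Retnlb, and in ovalbumin lungs from -0.28 to 0.30 for Chil4. For the strain difference in the ovalbumin response they ran from -0.20 to 0.37 for Chil4 and -0.028 to 0.19 for Retnlb. For that in the resiquimod response they ran from -0.30 to 0.17 for Chia1, -0.085 to 0.26 for Retnla and -0.012 to 0.19 for Retnlb.

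The Retnlb call with ovalbumin in C57BL/6 was lost when only the groups compared were fitted (limma adjusted p = 0.145), with array weights (0.0638) and under the replicate block (0.053), and the filter at the 25th percentile removes Retnlb. The replicate block changed no other call of a member. Same-numbered arrays gave mixed correlations of their deviations from group means (45 pairs, r from -0.63 to 0.61, 27 of them above 0.1), all 3 numbers were above 0.1 in 4 of 15 pairs of groups, and of 18 arrays 9 correlated best with their own number. Among the comparisons made, that holds for A/J resiquimod against A/J PBS (r from 0.16 to 0.50), where the block left 3 genes called. Squamous transcripts lay on 5 of the 6 arrays numbered 1, so shared numbers and shared tissue cannot be told apart. Retnlb calls against PBS with resiquimod in A/J appeared without A/J PBS replicate 3 (0.0288) or C57BL/6 ovalbumin replicate 2 (0.0448). The files give no detection calls, so the limit of weak signals such as Retnlb and Chil4 in PBS lungs is not known.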
